A study of Mus musculus with 9 samples.

Results

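The macrophages described here are the joint columns that the authors deposited under a class name beginning with macrophage. They number 67 of the 8423 columns of the joint expression table (0.795%), and all 67 carry 1 class name, macrophage-bone-marrow-2hr-LPS. The name is the authors' own; the sources used here give neither a treatment of the mice with LPS nor the way classes were assigned. A column is named by its class, by the mouse and by a cell barcode. Each value is a whole number per gene, called signal here, and the 67 columns held 8855 to 20042 of it (median 10623), over 3090 to 4653 genes (median 3624). The signal of a group of columns was added up and expressed per 1000000 (SPM), so that 1 unit of signal in the macrophage sum equals 1.19 SPM. A single column holds far less signal than the sum, so 1 unit there weighs many times more SPM. Low SPM values of single columns or profiles therefore rest on few units of signal.

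The study compared blood and joints of a mouse model of rheumatoid arthritis by single-cell RNA sequencing. The joint columns carry the names of 5 mice called Sick (numbers 1, 3, 4, 5 and 6; 6233 columns) and 4 called Healthy (numbers 1 to 4; 2190 columns). The labels describe the blood of mice with those names as that of female 129SvE animals, healthy or arthritic. For the joint samples the sources used here name no strain, sex, age, genotype, treatment, library method or way of taking the joints apart. The other 8356 columns fall into 9 classes: granulocytes (6487), common myeloid progenitors (1498), foxP3 T cells (179), B cells (63), osteoblasts (58), CD4 T cells (28), myeloid dendritic cells (19), mast cells (17) and white adipose (7). Classes are named as deposited, and a class name is not a check of cell identity.

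Macrophages are phagocytes that live in tissues or arise there from blood monocytes. They depend on the receptor for M-CSF, take up dying cells and immune complexes, digest them in lysosomes, and present peptides on MHC class II. In arthritic joints they are a known source of TNF, IL-1 and chemokines, and precursors of the same lineage fuse into osteoclasts, the cells that resorb bone.

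The columns are not independent cells. Among the 67 there were 40 distinct profiles: 32 stood in 1 column each and 8 in several, and 1 profile filled 9 columns. Of the 780 pairs of distinct profiles, 107 differed by less than counting noise gives on average. Separate draws from 1 profile can do so too. No macrophage profile occurred in another class and no macrophage column shared its barcode with another column, but 5 profiles (24 columns) stood under more than 1 mouse name. The joint table was therefore handled as 1 pooled sample. Every difference below is a description of this table with no p-value and no error over mice, and a class set against the rest of the table that it was cut from is not a test. Where a range over profiles is given, it is over the 40 distinct ones.

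All 4 marker genes of the label were higher in the macrophage columns. Lyz2, the lysozyme of myeloid cells (chromosome 10, 117277331 to 117282321, GRCm38), reached 73508 SPM in macrophages and 7952 SPM in the other columns. Its lowest macrophage profile held 34706 SPM, the median one 62925 SPM and the highest one 104603 SPM, against a median of 6125 SPM in the other profiles. That lowest value was reached by 111 of the other columns, all of them granulocytes, so Lyz2 alone did not separate the class. C1qb, a chain of complement C1q, stood at 3428 SPM in macrophages and 24.5 SPM in the others. It was present in all 40 macrophage profiles, from 1374 to 6550 SPM with a median of 2491 SPM, and 12 of the other columns, again all granulocytes, reached the lowest of these.

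The remaining pair of markers was lower and patchier. Csf1r, the receptor for M-CSF (chromosome 18, 61100598 to 61132149), averaged 191 SPM in macrophages and 19.2 SPM in the others. It was above 0 in 30 of the 40 profiles, with a median of 199 SPM and a highest value of 474 SPM, and the highest granulocyte profile held 793 SPM. Adgre1, which encodes F4/80 (chromosome 17, 57358691 to 57483527), averaged 149 SPM in macrophages and 4.98 SPM in the others. It was above 0 in 22 profiles only, with a median of 74.8 SPM and a highest value of 444 SPM. The myeloid dendritic class came next for both genes, with 99.4 SPM of Csf1r and 31.1 SPM of Adgre1. Of a wider list of 22 macrophage core genes, 21 were at least 2-fold higher and 0 lower, and all 22 had their highest level among the 7 classes of at least 20 columns in macrophages. The one that did not reach 2-fold was Cybb, the oxidase subunit that neutrophils share, at 1121 SPM in macrophages and 771 SPM in the others.

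**Figure D1:**
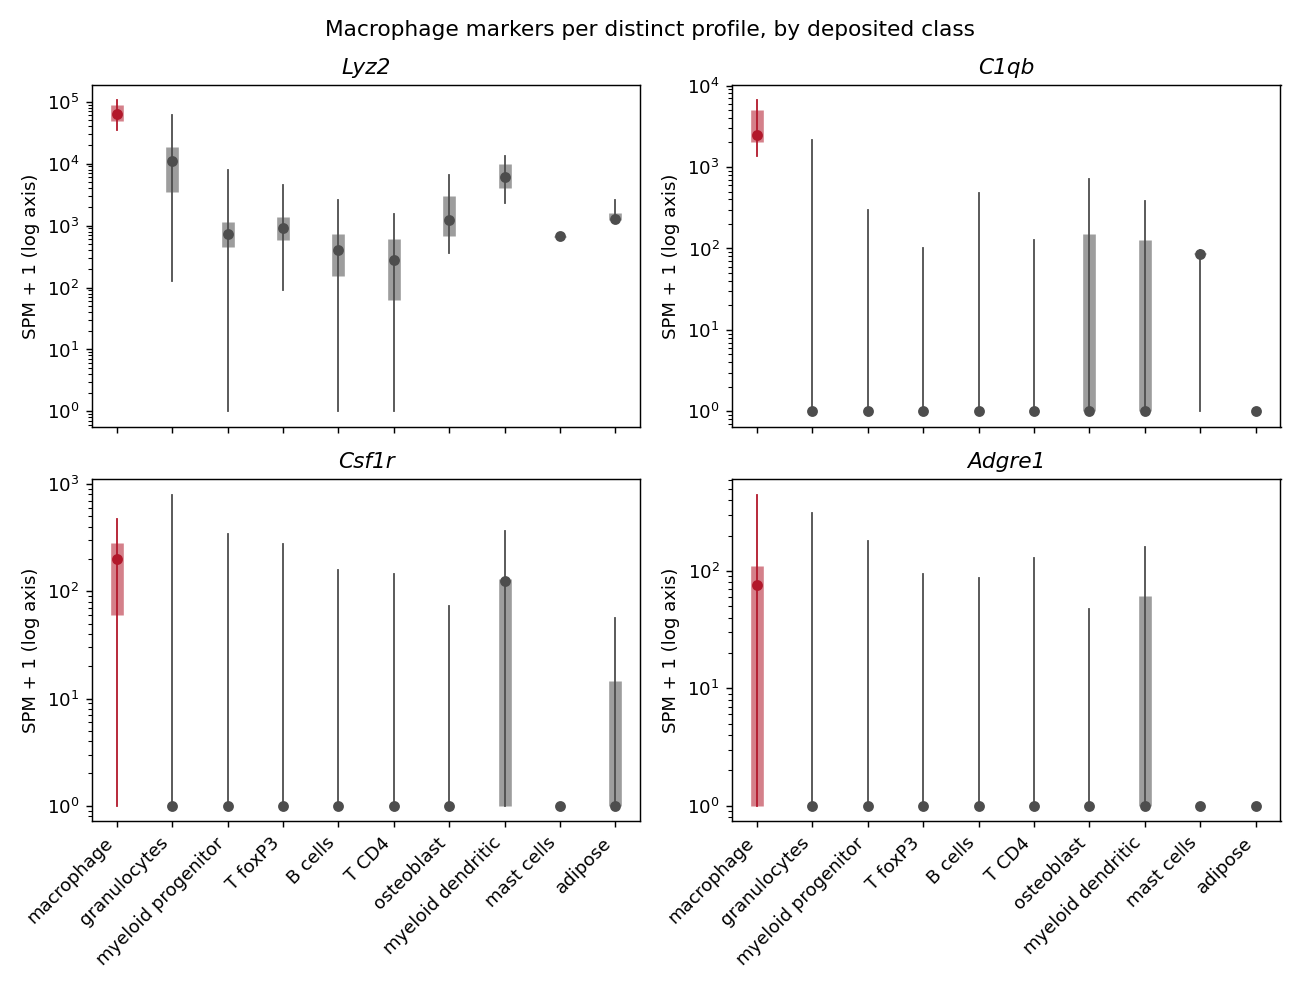
Signal of Lyz2, C1qb, Csf1r and Adgre1 per distinct profile in the 10 deposited joint classes, on log axes of SPM + 1; dots are medians, thick bars the interquartile range, thin lines the lowest to highest profile. C1qb ran from 1374 to 6550 SPM in macrophages while its median was 0 in granulocytes, and Csf1r and Adgre1 reached down to 0 among the macrophage profiles.

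Markers of other cells were looked for in the same columns. Of all tested genes, 32.1% were at least 2-fold higher and 28.3% at least 2-fold lower in macrophages. Of 20 neutrophil genes 17 were at least 2-fold lower and 0 higher, yet their transcripts were present: S100a8 stood at 8404 SPM in macrophages and 76829 SPM in the others, with at least 4458 SPM in every macrophage profile. Ly6g, the surface antigen that defines mouse neutrophils, and Mmp9 were listed at 0 in all 40 profiles. Hemoglobin took 1.09% of the macrophage signal (0.633% to 1.42% per column) and 21.3% of that of the other columns, and all 16 erythroid genes were at least 2-fold lower. Hbb-bs, an adult beta-globin, was nevertheless found in each macrophage profile, at 5624 to 11674 SPM. Lymphocyte genes were mixed, with a share of higher genes no larger than that among all genes. Of 7 T cell genes tested, 2 were higher and 4 lower: Il7r stood at 194 SPM in macrophages and 27.0 SPM in the others and Cd4 at 23.8 SPM against 2.39 SPM, while Trbc2, a T cell receptor chain, was listed at 0 in macrophages. Of 11 B cell genes, 3 were higher and 6 lower: Blnk stood at 84.4 SPM in macrophages against 21.0 SPM, Cd22 at 35.7 SPM against 7.04 SPM and Bank1 at 27.3 SPM against 12.2 SPM, while Cd79a and Vpreb3 were listed at 0 in macrophages. Under equal class weight the log2 differences of Cd4 (−0.43), Cd22 (−0.17) and Bank1 (−0.58) turned negative. All 5 tested genes of mast cells and basophils, Cpa3 among them, and the osteoblast gene Bglap (osteocalcin) were listed at 0 in macrophages. The part of these transcripts of other cells in the results below was not tested.

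Over the whole table, 9730 genes reached 10 SPM in macrophages or in the other columns. Of these, 3122 (32.1%) were at least 2-fold higher and 2758 (28.3%) at least 2-fold lower in macrophages, with a median log2 difference of 0.26. These shares are the background for every count against the other columns, those given above included. The split depends on the scaling: median-of-ratios scaling gave 2149 higher and 3428 lower genes and a median of −0.26, equal weight for each other class gave 2734 and 3745, columns with at most 5% hemoglobin gave 2448 and 3491, and totals without the hemoglobin genes gave 2495 and 3624. Equal class weight put the median of all genes at −0.12, the hemoglobin limit at −0.16 and totals without hemoglobin at −0.18, so a small log2 difference has no stable sign. Gapdh, which every cell uses, was listed at 0 in macrophages and stood at 6.65 SPM in the others, so a 0 here says only that a gene is listed at 0.

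**Figure D2:**
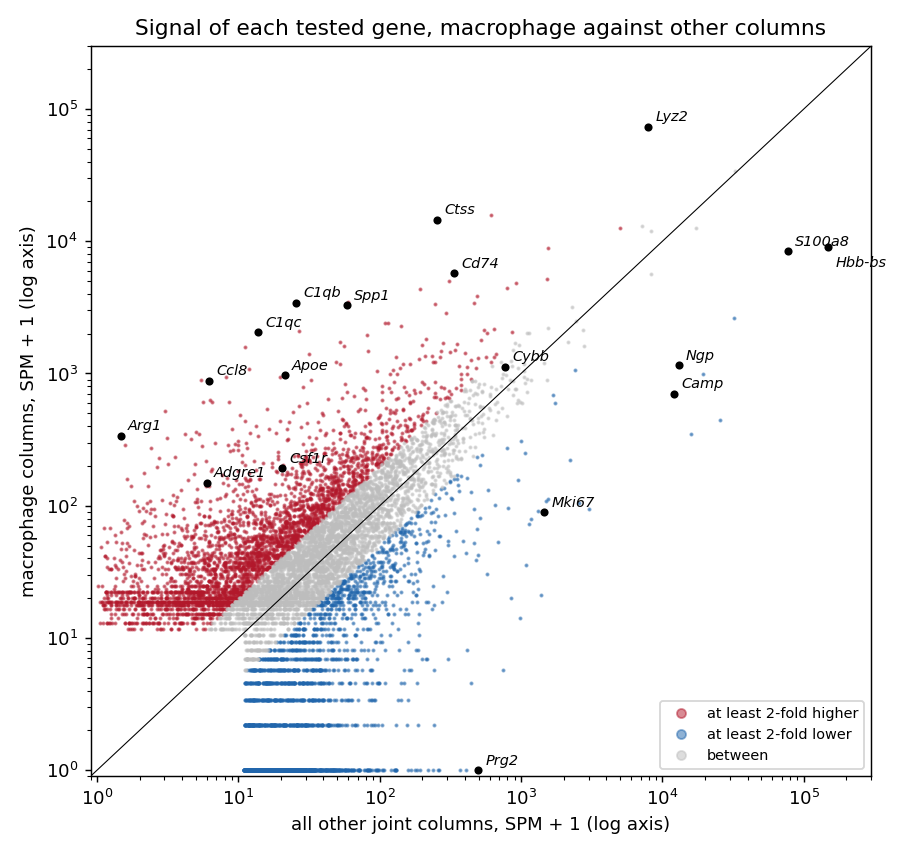
Each of the 9730 tested genes by its signal in the macrophage columns (vertical) and in all other joint columns (horizontal), as SPM + 1 on log axes, with the line of equal signal; red genes are at least 2-fold higher, blue ones at least 2-fold lower, and single genes are labelled. Lyz2 and Ctss head the macrophage side, while S100a8 and Hbb-bs lie far to the other.

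Among genes of at least 50 SPM, the largest differences on the log2 scale belonged to Arg1 (7.84), F7 (7.52), Pltp (7.42), Pdpn (7.34), C1qc (7.23), Ccl8 (7.15) and Retnla (7.13). Arg1, arginase 1, averaged 339 SPM in macrophages and 0.479 SPM in the others. It was above 0 in 37 of 40 macrophage profiles, with a median of 129 SPM and a highest value of 963 SPM, and in 0.390% of the other profiles. F7, coagulation factor VII, averaged 289 SPM in macrophages against 0.579 SPM, and Pltp, a phospholipid transfer protein of plasma, averaged 520.5 SPM in macrophages against 2.05 SPM in the others. Podoplanin (Pdpn), a membrane glycoprotein also found on fibroblasts and lymphatic endothelium, ran from 153 to 1437 SPM over the 40 profiles, and the osteoblast class came next with 232 SPM. Below them in the same ranking stood C1qb, C1qa, Ccl12, Ecm1, Pmp22, Ms4a7, Dab2 and Ccl7. This order rests on the pseudocount of 1, since the other columns held little of the leading genes: with a pseudocount of 10, C1qb (6.64), C1qc (6.51) and Retnla (6.29) led, and Arg1 stood at 5.06 and F7 at 4.82. Without Sick_mouse_3, Arg1 averaged 163 SPM in macrophages, with a log2 difference of 6.91.

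The chains of C1q, the molecule that binds antibody complexes and starts the classical complement pathway, stood together in that ranking. Their genes lie side by side on the minus strand of chromosome 4, C1qb at 136880129 to 136886187, C1qc at 136889804 to 136893065 and C1qa at 136895917 to 136898803 (GRCm38). C1qc averaged 2056 SPM in macrophages and 12.7 SPM in the others and was present in all 40 profiles, from 646 to 3614 SPM. C1qa averaged 940.0 SPM in macrophages and 7.22 SPM in the others, from 80.8 to 2146 SPM over the 40 profiles. All 3 chains were thus found in each macrophage profile, whereas C1qb was above 0 in 18.0% of the other profiles, C1qc in 9.56% and C1qa in 7.03%. The promoters of C1qc and C1qb are shown because these neighbours were among the genes with the largest differences. Both run from 250 bases before to 50 after the annotated start (RefSeq, GRCm38.p6, minus strand, printed 5′ to 3′ along the gene), C1qc at chr4:136892865-136893164 and C1qb at chr4:136886151-136886450. Capitals mark the core GAGGAA, which the myeloid factor PU.1 is known to bind, or its reverse complement.
C1qc: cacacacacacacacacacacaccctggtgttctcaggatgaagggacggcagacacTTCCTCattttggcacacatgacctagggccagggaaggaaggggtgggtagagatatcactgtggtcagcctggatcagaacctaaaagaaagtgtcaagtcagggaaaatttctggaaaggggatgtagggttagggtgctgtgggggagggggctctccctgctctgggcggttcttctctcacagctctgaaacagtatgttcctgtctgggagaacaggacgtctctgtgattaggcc
C1qb: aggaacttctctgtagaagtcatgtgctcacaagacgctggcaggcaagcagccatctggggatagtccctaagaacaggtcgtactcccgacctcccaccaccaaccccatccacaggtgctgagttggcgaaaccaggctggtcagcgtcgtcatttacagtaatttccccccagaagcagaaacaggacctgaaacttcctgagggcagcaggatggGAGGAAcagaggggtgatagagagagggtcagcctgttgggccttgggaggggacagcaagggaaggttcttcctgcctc
Each holds 1 match, on the opposite strand in C1qc and on the printed strand in C1qb, searched on both strands. Of 32851 promoters of this length, 9289 (28.3%) hold at least 1, so a match is common, and it is a description of letters, not of binding. C1qa is named only.

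Of 13 complement genes tested, 9 were at least 2-fold higher and 1 lower, with a median log2 difference of 4.01. Beside the C1q chains they included C3ar1, the receptor for C3a (351 SPM in macrophages and 3.19 SPM in the others), factor B (Cfb, 299 SPM against 5.87 SPM), properdin (Cfp, 414 SPM against 56.7 SPM), Vsig4 and Itgax. C3 stood at 102 SPM in macrophages and 155 SPM in the others, and the C5a receptor gene C5ar1 at 87.9 SPM against 83.1 SPM, neither of them past the 2-fold limit. The lower gene was Cd55, which protects cells from complement, at 1.19 SPM in macrophages and 30.2 SPM in the others. Receptors for antibody followed the same direction against the other columns together, but less so against the myeloid dendritic class (below). Of 10 Fc receptor genes and their adaptors, 7 were higher and 1 lower (median 3.01). Fcgr3 stood at 746 SPM in macrophages against 77.4 SPM and the inhibitory Fcgr2b at 431 SPM against 35.5 SPM. The gamma chain gene Fcer1g stood at 1254 SPM against 443 SPM.

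The lysosomal digestion machinery was higher nearly throughout: 25 of 26 genes, with a median of 2.91. Ctss, cathepsin S, averaged 14537 SPM in macrophages and 255 SPM in the others and ran from 5177 to 21490 SPM over the 40 profiles. Cathepsin B (Ctsb) reached 5039 SPM against 309 SPM, and cathepsin L (Ctsl) 3501 SPM against 58.2 SPM. These proteases were found in each of the 40 profiles. The tetraspanin Cd63 stood at 3422 SPM in macrophages, close to the 3456 SPM of the osteoblast class and the 3968 SPM of the mast cell class, so it was not highest there. The lysosomal regulators split: Mitf stood at 172 SPM in macrophages and 3.87 SPM in the others, while Tfeb, the lower member, was listed at 0 in macrophages.

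Genes of lipid handling were higher without exception: all 14 tested, with a median of 4.31. Apoe, apolipoprotein E, averaged 966 SPM in macrophages and 20.3 SPM in the others and was above 0 in 38 of 40 profiles, up to 2801 SPM. Lipoprotein lipase (Lpl) stood at 542 SPM against 14.9 SPM. The cholesterol exporters Abca1 (181 SPM in macrophages) and Abcg1 (209 SPM) and the lipid-sensing receptor Trem2 (232 SPM in macrophages and 2.54 SPM in the others) behaved likewise, and Fabp4 was listed at 0 in macrophages. Receptors for uptake gave 13 higher and 0 lower of 15, with a median of 3.42. The scavenger receptor Msr1 stood at 946 SPM in macrophages against 18.6 SPM, the mannose receptor Mrc1 at 383 SPM against 7.95 SPM, and Mertk, which binds dying cells through Gas6, at 139 SPM against 0.733 SPM. Gas6 itself stood at 92.7 SPM in macrophages and 1.40 SPM in the others. Timd4, a marker of some resident macrophages, was listed at 0 in macrophages.

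**Figure D3:**
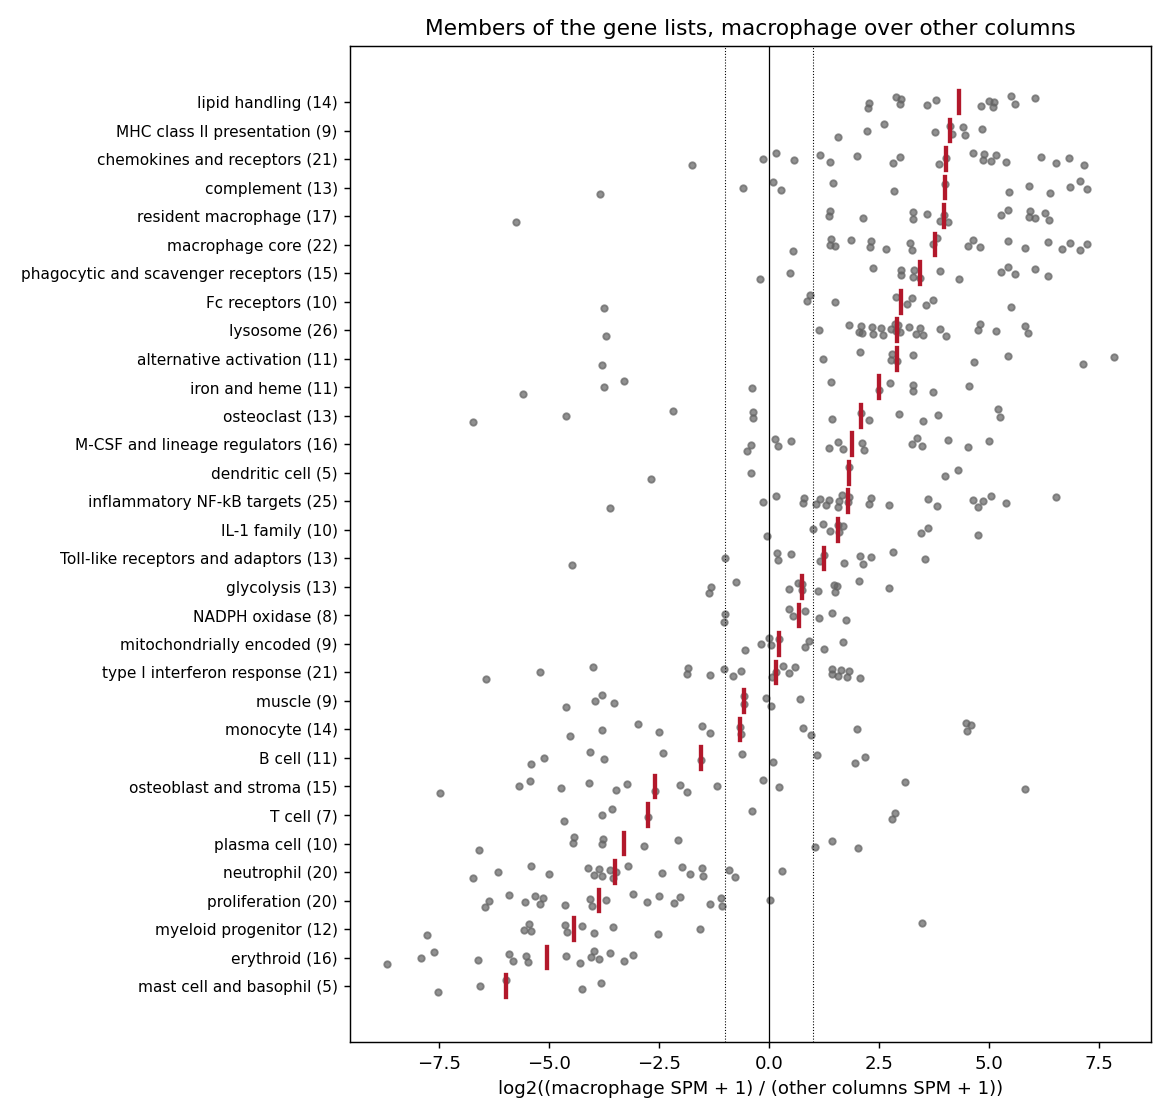
Log2 difference of each tested gene between macrophage and other columns, by gene list (number of genes in brackets); each dot is a gene, the red bar the list's median, dotted lines the 2-fold limits. Lipid handling (median 4.31) and MHC class II presentation (4.10) lie at the top and erythroid genes (−5.04) near the bottom.

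Genes of antigen presentation were higher in macrophages than in the other columns together, but not than in the dendritic class. All 9 genes of MHC class II presentation that were tested were higher than in the other columns, with a median of 4.10. The invariant chain Cd74 averaged 5742 SPM in macrophages and 333 SPM in the others, and H2-Ab1 averaged 2394 SPM against 108 SPM. Each was found in all 40 profiles, Cd74 from 2212 to 11885 SPM and H2-Ab1 from 759 to 4500 SPM. The 19 myeloid dendritic columns held more, with 11418 SPM of Cd74 and 4057 SPM of H2-Ab1. The class II transactivator Ciita was listed at 0 in macrophages and at 1.57 SPM in the others. Of 5 dendritic cell genes tested, 3 were higher in macrophages and 1 lower: Itgax stood at 53.5 SPM in macrophages and 2.39 SPM in the others, Batf3 at 60.6 SPM against 2.12 SPM and Bst2 at 216 SPM against 61.0 SPM, while Siglech was lower at 2.38 SPM against 20.6 SPM. Irf8, at 68.9 SPM in macrophages and 91.9 SPM in the others, did not pass the limit. Flt3, Zbtb46, Xcr1, Clec9a and Cd209a were listed at 0 in macrophages, but were below 10 SPM in the others too and were not tested.

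Chemokines were among the groups with the largest differences, with 17 of 21 genes of the chemokine list higher, 1 lower and a median of 4.01. The whole list summed to 10655 SPM in macrophages and 941 SPM in the others, but to 9702 SPM in the 17 mast cell columns. Ccl2, Ccl7, Ccl8 and Ccl12, which act on the monocyte receptor CCR2 and related receptors and lie in 1 cluster on chromosome 11 between 82035571 and 82116799, were all higher. Ccl2 averaged 1225 SPM in macrophages and 48.0 SPM in the others and ran from 229 to 2310 SPM over the 40 profiles. Ccl7 averaged 1087 SPM against 10.9 SPM, Ccl8 averaged 884 SPM against 5.23 SPM, and Ccl12 averaged 271 SPM against 1.42 SPM. Ccl2 and Ccl7 were present in each profile, whereas Ccl8 was above 0 in 36 and Ccl12 in 20. The neutrophil attractant Cxcl2 stood at 1725 SPM in macrophages and 51.0 SPM in the others. Cxcl1, which acts on the same receptor, stood at 286 SPM against 8.92 SPM but was higher still in the osteoblast class, at 831 SPM. Among receptors, Ccr2 stood at 709 SPM in macrophages and 177 SPM in the others. Ccl3 (27.3 SPM in macrophages and 24.5 SPM in the others) and Ccl4 (44.0 SPM against 48.2 SPM) were not different at the 2-fold limit, Ccl5 was the lower member at 4.75 SPM against 18.3 SPM, and Cxcl10 was listed at 0 in macrophages.

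Of 25 inflammatory targets of NF-kB, 20 were higher, 1 was lower and the median was 1.80. The whole list summed to 8879 SPM in macrophages and 1404 SPM in the others, but to 22078 SPM in the 17 mast cell columns. Il1b averaged 442 SPM in macrophages and 149 SPM in the others and was found in all 40 profiles, from 101 to 1308 SPM. Its antagonist Il1rn averaged 486 SPM against 38.5 SPM and was also found in each. Il1a, at 55.9 SPM in macrophages and 1.13 SPM in the others, was above 0 in 22 profiles. Tnf stood at 57.0 SPM in macrophages and 32.3 SPM in the others, a log2 difference of 0.80 that falls short of the 2-fold limit and moved between 0.28 and 2.38 over the alternatives. Il6 was listed at 0 in macrophages, while the mast cell class held 4981 SPM of it and the osteoblast class 54.1 SPM. Feedback inhibitors were present too, with the IkB gene Nfkbia at 1798 SPM in macrophages and 517 SPM in the others. Of 10 genes of the IL-1 family 8 were higher and 0 lower, Casp1 (157 SPM against 48.0 SPM) and Nlrp3 (73.7 SPM against 23.9 SPM) among them. The Toll-like receptor list gave 8 higher and 2 lower of 13: Cd14, the LPS co-receptor, stood at 1226 SPM in macrophages against 244 SPM, Tlr2 at 221 SPM against 30.5 SPM and Tlr7 at 70.1 SPM against 5.09 SPM. Irak4 was listed at 0 in macrophages, and Myd88 was lower, at 9.51 SPM against 20.1 SPM.

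Type I interferon response genes did not share a direction, with 7 higher, 7 lower and 7 between of 21, and a median of 0.15 below the 0.26 of all genes. Irf7, the factor that amplifies the response, stood at 190.1 SPM in macrophages and 60.0 SPM in the others. Rsad2, an antiviral enzyme, stood at 1.19 SPM in macrophages and 186 SPM in the others, and Isg15 at 65.4 SPM against 134 SPM. Within 1 list, then, the single genes lay on both sides.

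Genes used to describe alternative activation gave 10 higher and 1 lower of 11, with a median of 2.90. Arg1 and Retnla led the list, and Il4ra, the receptor for IL-4 and IL-13, stood at 121 SPM in macrophages and 15.4 SPM in the others. Chil3 was the lower member, at 107 SPM in macrophages and 1491 SPM in the others, and it is also a granule transcript of neutrophils. Retnla, which encodes RELMα (chromosome 16, 48842551 to 48844461), averaged 1572 SPM in macrophages and 10.2 SPM in the others. Its spread was uneven: 30 of the 40 profiles were listed at 0 and the highest held 13349 SPM. By mouse name Retnla stood at 10130 SPM in Sick_mouse_6 and Healthy_mouse_1, 7139 SPM in Sick_mouse_5, 2981 SPM in Sick_mouse_1, 415 SPM in Sick_mouse_3 and 105 SPM in Sick_mouse_4. The equal values of Sick_mouse_6 and Healthy_mouse_1 come from 1 profile that is repeated under 4 mouse names.

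Of 16 lineage genes, 11 were higher and 0 lower than in the other columns, with a median of 1.89. Against the myeloid dendritic class, 4 of 16 were higher and 4 lower, with a median of 0.32. Of all genes tested against that class, 28.9% were higher and 39.3% lower. Maf stood at 215 SPM in macrophages and 11.8 SPM in the others, Cebpb at 857 SPM against 198 SPM and Klf4 at 771 SPM against 74.6 SPM. Spi1, which encodes PU.1, was near even, at 202 SPM in macrophages and 144 SPM in the others, a log2 difference of 0.49. Resident macrophage genes were higher in 16 of 17 tested, with a median of 3.98. Among them Pf4 stood at 2080 SPM in macrophages and 25.9 SPM in the others, Folr2 at 139 SPM against 1.30 SPM, and Lyve1 at 10.7 SPM against 1.65 SPM, with Lyve1 above 0 in 2 profiles only. Pf4 is also a platelet gene. Of the other platelet genes, Itgb3 stood at 8.32 SPM in macrophages and 10.9 SPM in the others, and Ppbp, Itga2b, Gp9 and Gp1bb, listed at 0 in macrophages, were too low in the others to be tested; a part of platelet RNA in the Pf4 level was not tested. Monocyte genes were mixed, with 4 higher and 6 lower of 14. Fn1, fibronectin, stood at 1945 SPM in macrophages and 79.7 SPM in the others, below the 3644 SPM of osteoblasts, and S100a4 at 1173 SPM against 51.0 SPM. Ly6c2, the marker of classical monocytes, was lower at 203 SPM in macrophages and 512 SPM in the others, with granulocytes the highest class.

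Osteoclast genes were higher in 8 of 13 and lower in 3. Dcstamp, needed for osteoclast fusion, averaged 40.4 SPM in macrophages and 0.131 SPM in the others and was above 0 in 13 profiles. Acp5, the tartrate-resistant acid phosphatase, averaged 102 SPM against 37.1 SPM and was above 0 in 27. Ctsk, cathepsin K, averaged 57.0 SPM in macrophages and 6.48 SPM in the others, was above 0 in 12 profiles and was highest in osteoblasts; with equal weight for each other class its log2 difference turned to −0.029. The osteoclast genes Mmp9 and Nfatc1 were lower, the first listed at 0 and the second at 2.38 SPM in macrophages against 14.2 SPM. Osteopontin (Spp1), a secreted bone matrix protein that macrophages also make, stood at 3292 SPM in macrophages and 57.8 SPM in the others. The mast cell class held 1273 SPM of it and osteoblasts 723 SPM. Of 15 genes of osteoblasts and stroma, 2 were higher (Spp1 and Pdgfrb) and 11 lower.

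Iron genes gave 7 higher and 3 lower of 11. The ferritin chains Fth1 (8833 SPM in macrophages and 1556 SPM in the others) and Ftl1 (775 SPM against 115 SPM) and heme oxygenase Hmox1 (178 SPM against 17.6 SPM) were higher. The iron exporter Slc40a1 was listed at 0 in macrophages and at 46.8 SPM in the others, and the transferrin receptor Tfrc was lower at 17.8 SPM against 183 SPM. In glycolysis 6 of 13 were higher and 2 lower, with the hexokinases apart: Hk2 stood at 271 SPM in macrophages and 40.1 SPM in the others, and Hk1 at 16.6 SPM against 44.1 SPM. Proliferation genes were lower in 19 of 20 and higher in 0, with a median of −3.87. Mki67 stood at 87.9 SPM in macrophages and 1454 SPM in the others, and Cdk1 and Ccna2 were listed at 0 in macrophages. Members listed at 0 enter these medians with 0 SPM plus the pseudocount of 1.

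At the other end of the ranking, 14 of the 15 genes of at least 50 SPM with the largest lower values were listed at 0 in macrophages. They include genes of eosinophils and basophils (Prg2 at 497 SPM in the others, Mcpt8 at 184 SPM), of red cell precursors (Slc4a1, Car1, Ermap and Abcb10), of dividing cells (Hist1h2an, Nusap1 and Rrm1), of neutrophil precursors (Ctsg at 217 SPM) and of osteoblasts (Bglap at 178 SPM), with Tmcc2 and St3gal5 beside them. The remaining one, Hbb-bh3 of the beta-globin cluster, stood at 4.75 SPM in macrophages and 738 SPM in the others.

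Of the 6 other classes with at least 20 columns, the granulocytes were most like the macrophages, with a correlation of log2 SPM over 23499 genes of 0.778. Common myeloid progenitors (0.715) and the foxP3 T class (0.713) came next, and osteoblasts were least alike (0.659). These correlations are over genes of 1 table and share its totals. Against granulocytes, 37.3% of the tested genes were at least 2-fold higher and 24.3% lower in macrophages, led by Arg1, Pdpn, F7, Pltp and Pf4. There, 14 of 14 lipid genes and 25 of 26 lysosomal genes were higher and 19 of 20 neutrophil genes lower. Against the progenitors, 26.6% of genes were higher and 39.6% lower, led by C1qc at 2056 SPM in macrophages against 3.33 SPM and by Car1, listed at 0 in macrophages against 757 SPM. Of 19 neutrophil genes 6 were higher and 4 lower there. Against the foxP3 T class, 43.5% were higher and 24.5% lower, and Ccl7, Pdpn and Ccl8 were listed at 0 in that class. The T class held 45.3% hemoglobin against 1.09% in macrophages.

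The myeloid dendritic class has 19 columns and was added after the data were seen. Against it 28.9% of genes were higher and 39.3% lower in macrophages. Of 22 macrophage core genes 13 were higher and 1 lower, with a median of 1.68, and of 12 genes of MHC class II presentation 1 was higher and 5 lower. Type I interferon genes were lower in 19 of 25, and 9 dendritic genes gave 0 higher and 6 lower. Of 10 Fc receptor genes 4 were higher and 2 lower (median 0.31), and of 10 IL-1 family genes 4 and 0 (median 0.16). The Toll-like receptor list gave 5 higher and 4 lower of 15 (median −0.21), and resident macrophage genes 9 and 5 of 18 (median 1.19). Lysosomal genes were higher in 17 and lower in 1 of 26, and lipid genes in 13 and 1 of 15. Pf4, Saa3, Ccl7, Pdpn and Ccl8 were listed at 0 in the dendritic columns, at 2080, 1397, 1087, 885 and 884 SPM in macrophages.

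The 40 profiles were cut into 4 sets by the correlation of their values, and the number of sets was a setting, not a result. The grouping was made after the data were seen, and no difference was tested for it. Set A held 16 profiles (21 columns under 5 mouse names), set B 9 (15 columns, 2 names), set C 8 (15 columns, all Sick_mouse_3) and set D 7 (16 columns, 4 names). The median correlation within a set was 0.734 in A, 0.903 in B, 0.861 in C and 0.907 in D, and between 0.546 and 0.619 to the other sets. The least alike pair within A stood at 0.578. All 107 pairs that differed by less than the average of counting noise lay within a set, which a grouping by correlation favours. The profiles of a set were not treated as replicates. Values of a set count each distinct profile once.

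Sets B and C held more Lyz2, C1q and, summed over the list, lipid transcripts, and sets A and D more MHC class II and Il1b. Lyz2 stood at 99204 SPM in B and 83883 SPM in C, and at 51368 SPM in A and 51151 SPM in D. C1qb followed with 4115 SPM in B and 6001 SPM in C, and 2204 SPM in A and 2091 SPM in D. Over profiles it reached 3705 SPM in A and went down to 3094 SPM in B, so these overlapped. Apoe stood at 1686 SPM in B and 1668 SPM in C, and at 228 SPM in A and 791 SPM in D. Over profiles Apoe reached 1326 SPM in D and went down to 1048 SPM in B and 948 SPM in C, so D overlapped both. The lipid list summed to 11284 SPM in B and 10479 SPM in C, and to 6905 SPM in A and 7416 SPM in D. Not every lipid gene followed. The adipocyte list, of which Lpl made up 542 of 549 SPM in macrophages, summed to 876 SPM in D, 578 SPM in C, 485 SPM in B and 274 SPM in A. The genes of MHC class II presentation summed to 7527 SPM in B and 6434 SPM in C, and to 17741 SPM in A and 21642 SPM in D. Over profiles these sums ran from 4942 to 11975 SPM in B and 5657 to 7370 SPM in C, and from 8741 to 22499 SPM in A and 18945 to 26060 SPM in D, so B and A overlapped. Il1b stood at 173 SPM in B and 144 SPM in C, and at 729 SPM in A and 1074 SPM in D. Over profiles it reached 449 SPM in B and went down to 381 SPM in A, an overlap again.

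Single genes differed between the sets as well, some of them with overlap over profiles. Adgre1 was mostly a transcript of set B, where every profile held between 249 and 444 SPM, and no profile of the other sets passed 109 SPM. These values rest on few units of signal per profile. Arg1 averaged 677 SPM in B and 407 SPM in C, against 91.2 SPM in A and 84.8 SPM in D. Csf1r was listed at 0 in all 8 profiles of C while it stood at 162 SPM in A, 266 SPM in B and 325 SPM in D. Set C alone held Cxcl13, the B cell chemokine, at 512 SPM on average and from 0 to 1242 SPM, above 0 in 4 of its 8 profiles and in no profile of the other sets. Ccl12 stood at 919 SPM in C, from 108 to 1694 SPM over profiles, and Ccl8 at 2561 SPM, from 870 to 4630 SPM. Profiles of B reached 1135.5 SPM of Ccl12 and 2195 SPM of Ccl8, so both overlapped. Set A held more of the monocyte transcripts Ly6c2 (557 SPM, against 13.3 SPM in B) and Ccr2 (1226 SPM, against 332 SPM in B). Both overlapped other sets over profiles. Ly6c2 went down to 174 SPM in A and reached 326 SPM in C, and Ccr2 went down to 708 SPM in A and reached 1090 SPM in D. Retnla stood at 3647 SPM in A, although the median profile of A was listed at 0 for it. In set D the kinase gene Slk stood at 1229 SPM against 193 SPM in the other sets, Tnfaip3, an NF-kB inhibitor, at 381 SPM against 37.7 SPM, and F7 at 28.3 SPM against 314 SPM. The neutrophil list summed to 9730 SPM in C and to between 15937 and 16288 SPM in A, B and D, and the mitochondrially encoded list summed to 24333 SPM in B and 36006 SPM in C, and to 53100 SPM in A and 66450 SPM in D. The signal per profile had a median of 16918 in B, 12213 in A, 9701 in D and 9449 in C. The part of these values in the grouping was not tested.

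**Figure D4:**
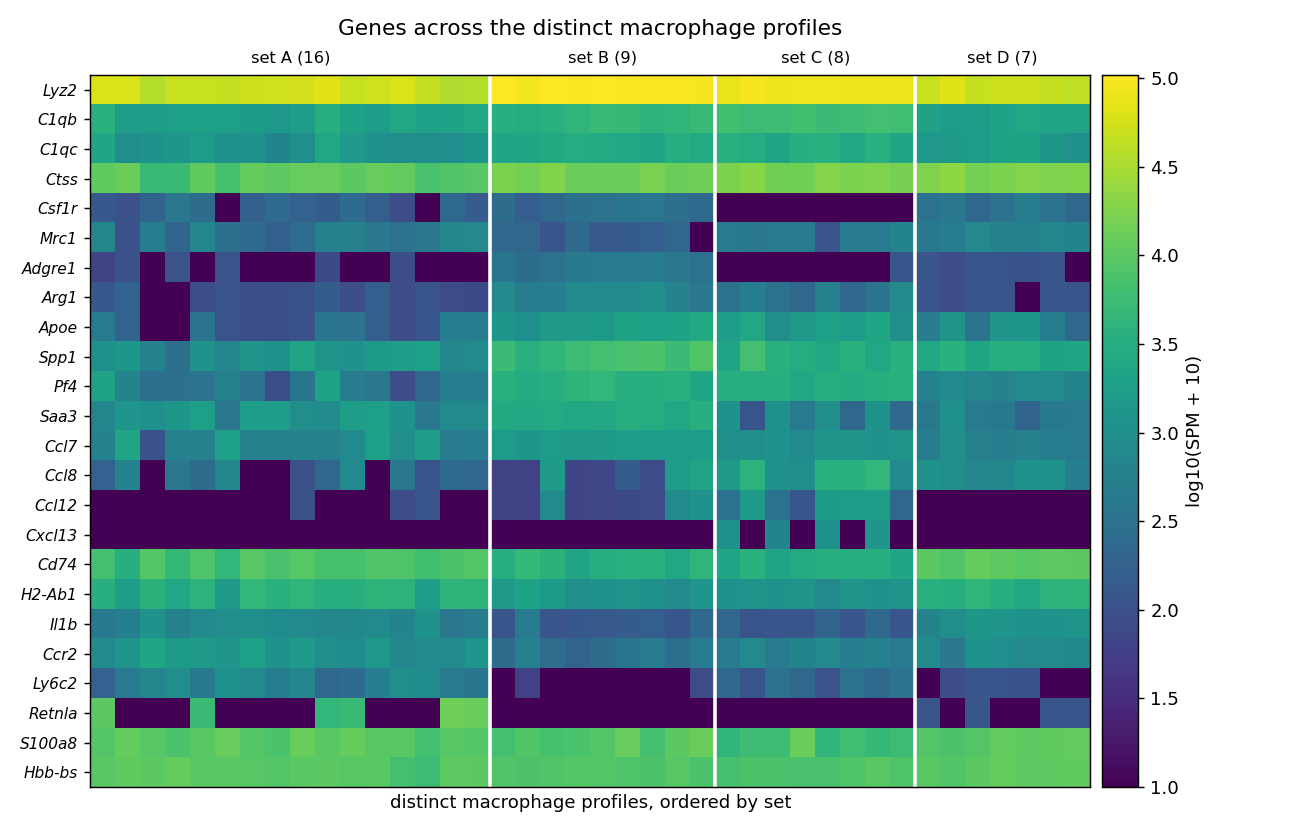
Signal of 24 genes (rows) in the 40 distinct macrophage profiles (columns), ordered by set with the number of profiles in brackets, as log10(SPM + 10). Lyz2, C1qb and Ctss are filled in every profile, Adgre1 mainly in set B, Cxcl13 in set C, and Retnla in part of set A.

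Most of the macrophages came from 1 mouse name. Sick_mouse_3 gave 52 of the 67 columns (77.6%), which is 3.42% of its 1521 columns. The other Sick mice gave 5 of 1300 (Sick_mouse_1, 0.385%), 3 of 884 (Sick_mouse_4, 0.339%), 5 of 1383 (Sick_mouse_5, 0.362%) and 1 of 1145 (Sick_mouse_6, 0.0873%). Healthy_mouse_1 gave 1 of 617 (0.162%), and the other 3 Healthy mice, with 385, 558 and 630 columns, gave 0. The 1 Healthy column holds a profile that also stands under 3 Sick names, so no comparison of Sick with Healthy macrophages could be made. No counting interval is given for these shares, because columns repeat. The osteoblast class was also richest in Sick_mouse_3, at 2.30% of its columns, and whether the joints were sampled alike is not given in the sources used here.

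**Figure D5:**
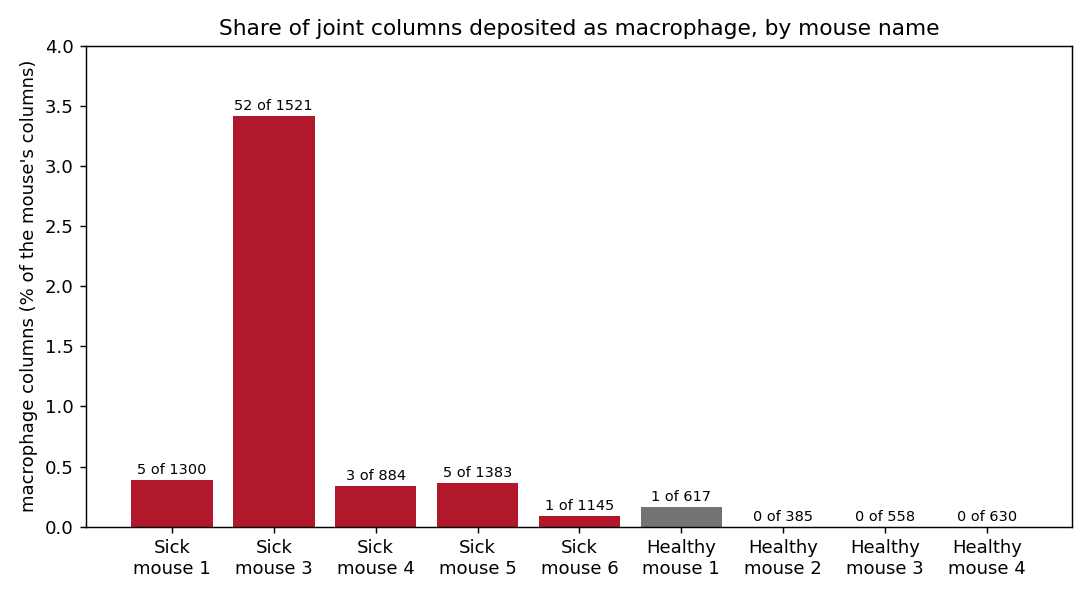
Macrophage columns as a percent of all joint columns under each mouse name, Sick mice in red and Healthy mice in grey, with the counts above the bars. Sick_mouse_3 stands at 3.42% and every other mouse at 0.385% or less.

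The 15 columns of other mice held 10 distinct profiles, and 6 of the 15 were identical to a column of Sick_mouse_3. The markers were present under each mouse name. C1qb stood at 3625 SPM in Sick_mouse_3, 2864 SPM in Sick_mouse_5, 2405 SPM in Sick_mouse_1, 2234 SPM in Sick_mouse_4, and 3705 SPM in both Sick_mouse_6 and Healthy_mouse_1, which share 1 profile. Lyz2 ran from 45939 SPM in Sick_mouse_4 to 78463 SPM in Sick_mouse_3. Spp1 stood at 3765 SPM in Sick_mouse_3 and between 1042 and 2321 SPM under the other names. H2-Ab1 went the other way, at 2128 SPM in Sick_mouse_3 and between 3032 and 3875 SPM under the others. Ccl12 stood at 352 SPM in Sick_mouse_3 and 5.10 SPM in the other mice together, so its difference rests on that mouse, as does that of Cxcl13, which was listed at 0 in the macrophages of the others. Of the higher genes of at least 50 SPM that were named by rule, 19 had a macrophage level over 1.5 times that of the columns without Sick_mouse_3, and 6 had one lower by as much. Without that mouse Arg1 stood at 163 SPM, Apoe at 490.0 SPM, Ccl8 at 403 SPM, Adgre1 at 86.8 SPM and Spp1 at 1730.4 SPM. Among the other genes described above, C1qa (613 SPM), Ccl7 (725 SPM), Pf4 (1383 SPM), Ctsl (2246 SPM), Ms4a7 (393 SPM), Dab2 (388 SPM), Pmp22 (184 SPM), Cxcl1 (133 SPM), Il1a (30.6 SPM) and Itgax (15.3 SPM) were also lower there. Retnla (5385 SPM), Maf (332 SPM) and Batf3 (117 SPM) were higher there.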

How the data were processed

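The joint table holds whole-number signal per gene and column, as deposited by the authors, who made it before deposit in steps that no source used here describes. Because 3857 of its 8423 columns are identical to another, the signal was not treated as counts. The blood samples were made with Seq-Well, per the labels' protocols, on GRCm38.p5, per the submitters' processing notes, and the blood table was not used.

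Columns were taken by class name and their signal was summed and scaled per 1000000. Differences are log2 ratios after adding a pseudocount of 1. A gene counted as tested where either group held at least 10 SPM, and as higher or lower from a 2-fold difference on. The macrophage columns and the 37 gene lists were chosen with earlier results of these data known. Named genes are the 4 markers, the 15 with the largest log2 difference in each direction at 50 SPM or more, 5 per direction against each like class, and up to 4 members of each list by level with up to 2 more by difference; further list members were chosen after their values were seen. Profile sets are average-linkage clusters on correlation (log2, pseudocount of 100), cut to give 4 sets. Genes of at least 300 SPM were considered between them. The comparison was tested on simulated data drawn as independent counts. These lacked the repeated columns of the joint table, so the test does not cover that trait. Gene positions are from GENCODE M21 and promoters from RefSeq. Python 3.11.15, numpy 2.4.6, pandas 2.3.3, scipy 1.17.1 and matplotlib 3.10.9 were used. Some genes are not reported here.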

Additional observations from a re-analysis of the deposited data

Results flagged for a closer look

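Among the 5 Sick mice, the share of macrophage columns in Sick_mouse_3, 3.42%, stood far above the other Sick mice, which lay between 0.0873% and 0.385%. Among the 4 Healthy mice, Healthy_mouse_1 had a share of 0.162% and the others had 0%; it rests on 1 column. Chance can also set a sample apart in this way, and how often it does so among these repeated columns was not computed.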

How the results depend on the processing

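Of the recomputed counts, 479 stayed within 1.5 times the reported value and 8 did not. The 8 were 8387 lower genes with no filter on low values; 1473 higher and 657 lower genes, 4 higher Toll-like receptor genes and 4 higher osteoclast genes at a filter of 50 SPM; 9 lower erythroid genes in columns with at most 5% hemoglobin; and, with median-of-ratios scaling, 2070 genes higher than in granulocytes and 2485 higher than in the foxP3 T class. The filters test fewer or more genes; the cause of the others was not tested. Of 186 single genes, 21 lay on both sides of 0 over the alternatives; 15 of them had not passed the 2-fold limit, and 6 had: Sparc turned to 0.21 with 1 column per distinct profile, Cd22 to −0.17, Bank1 to −0.58, Cd4 to −0.43 and Ctsk to −0.029 with equal class weight, and Cxcl13 to −0.48 without Sick_mouse_3, where its macrophage value is listed at 0; with each mouse left out in turn Cxcl13 ran from −0.48 to 5.15. Leaving out each mouse gave 3060 to 3205 higher and 2705 to 3033 lower genes. A limit on mitochondrial signal removed 0 columns. Settings that set macrophage classes against each other, or left 1 out, were not run, since all columns carry 1 class name. Leaving out the hemoglobin genes and weighting the 4 sets equally, like the comparison with the dendritic class, were chosen after seeing the data. No paired analysis was possible because the differences come from no test.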
